A study of Mus musculus with 8 samples.

Results

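The 9 genes described here, Isg15, Ifit1, Ifit3, Irf7, Irf1, Bst2, Ifitm3, Ifi27l2a and Oasl2, are interferon-stimulated genes, chosen by name from the 33027 genes of a single-cell RNA dataset of mouse lung. Their transcripts were counted in 40074 cells of 32 cell types, and all 9 had counts. The lungs came from 8 Sftpc-CreERT2-mTmG mice on a C57BL/6 background, of which 4 were exposed to 3R4F cigarette smoke (CS) for 6 hours a day, 5 days a week, over 10 months and 4 littermates breathed room air (RA). Mice of both groups carried the reporter and received tamoxifen at 8 to 10 weeks of age, which turns on green fluorescent protein in cells in which the Sftpc promoter is active, mainly alveolar type 2 (AT2) cells. Right lungs were taken one day after the last exposure, and the cells loaded were 90% CD45- and 10% CD45+, so that the share of leukocytes was set by the sort. The CS mice are named C2, C5, D2 and D5, and the RA mice F1, F3, M1 and M3.

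Interferons are secreted proteins that bind receptors on nearly every cell and signal through JAK kinases to STAT transcription factors. Type I interferons act largely through a complex that binds interferon-stimulated response elements, while interferon-gamma acts largely at gamma-activated sites. Lung epithelium, endothelium and leukocytes hold these transcripts at low levels without infection, and their products block steps of viral entry, replication and release.

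The products differ in role. Irf1 and Irf7 encode transcription factors of the interferon regulatory family, and Irf7 amplifies type I interferon production. Ifit1 and Ifit3 encode RNA-binding proteins that restrict translation of foreign RNA, and Isg15 encodes a ubiquitin-like modifier. Oasl2 belongs to the oligoadenylate synthetase family. Bst2 encodes tetherin, which holds budding virions at the cell surface, and Ifitm3 encodes a membrane protein that hinders fusion of virus with endosomes. Ifi27l2a encodes a small membrane protein strongly induced by interferon.

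The promoters of 5 genes are shown because they hold letter matches to motifs that resemble the elements named above. Windows from 250 bases before to 50 bases after the start of each gene were taken from RefSeq (GRCm38.p6), and 8 of the 9 genes had an entry, Ifi27l2a being the exception. As a response-element-like motif, GAAA followed by any 2 bases and GAAA again was searched on both strands, where the other strand reads TTTC, any 2 bases and TTTC, and it occurs in 3.44% of 32851 promoter windows. The letters TTCNNNGAA, which read the same on both strands, were searched as a gamma-activated-site-like motif and occur in 8.30%. The 120 bases from 170 to 51 before the start are printed 5′ to 3′ on the strand of the gene, with matches in capitals.

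Isg15 (chr4:156200869-156200988, minus strand): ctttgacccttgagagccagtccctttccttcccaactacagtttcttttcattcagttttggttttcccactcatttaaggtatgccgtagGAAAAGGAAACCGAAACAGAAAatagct
Ifit1 (chr19:34640719-34640838, plus strand): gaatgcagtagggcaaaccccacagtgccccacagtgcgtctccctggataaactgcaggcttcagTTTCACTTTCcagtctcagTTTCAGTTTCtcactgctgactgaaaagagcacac
Ifit3 (chr19:34583359-34583478, plus strand): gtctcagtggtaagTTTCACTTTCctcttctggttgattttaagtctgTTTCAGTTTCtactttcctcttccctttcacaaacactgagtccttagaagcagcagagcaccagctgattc
Irf1 (chr11:53769844-53769963, plus strand): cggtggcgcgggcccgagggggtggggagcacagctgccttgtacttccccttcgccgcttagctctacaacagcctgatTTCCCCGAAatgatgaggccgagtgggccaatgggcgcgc
Bst2 (chr8:71537523-71537642, minus strand): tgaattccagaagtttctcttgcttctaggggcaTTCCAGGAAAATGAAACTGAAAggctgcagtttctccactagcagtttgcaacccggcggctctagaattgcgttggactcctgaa

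Isg15 held 3 overlapping response-element-like matches that begin 78, 72 and 66 bases before the start. Ifit1 held 2, at 104 and 85 bases, and Ifit3 held 2, at 156 and 122 bases. Bst2 held 2 overlapping matches at 130 and 124 bases, and a gamma-activated-site-like match at 136 bases overlapped the one at 130. Irf1 had 2 entries, and the first, printed above, held a gamma-activated-site-like match at 90 bases and no response-element-like match. The second Irf1 entry held neither. Ifitm3 held its matches after the start, and in the Irf7 and Oasl2 windows neither string of letters was found. A match in these letters is a description of the window and was not tested for binding.

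Isg15 lies on chromosome 4 of GRCm38, Ifit1 and Ifit3 on chromosome 19, Irf7 and Ifitm3 on chromosome 7, Irf1 on chromosome 11, Bst2 on chromosome 8, Ifi27l2a on chromosome 12 and Oasl2 on chromosome 5. All 9 are annotated as protein coding. Ifit3 (34583531 to 34588731) has a near copy, Ifit3b (34607970 to 34613401), and Oasl2, Ifi27l2a and Ifitm3 also have close relatives beside them, so the split of reads between such copies is uncertain.

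Counts of each cell were brought to a total of 10,000 and averaged over all cells of a type in a mouse, which gives 1 value per mouse and type, and n counts mice. Total counts of unique molecular identifiers (UMIs) ran from 33145096 to 48490570 per CS mouse and from 31094695 to 52753531 per RA mouse, and median UMIs per cell lay between 4254 and 6473 over all mice. Of the cell barcodes, 197 occurred in more than 1 library. Both CS libraries labelled male held the X-inactivation transcript Xist, at 7.83 and 8.34 per 10,000, and the CS libraries with a female label held Ddx3y, a gene of the Y chromosome, at 0.925 and 1.08, whereas the RA libraries matched their labels. The sex labels entered no test given here other than 1 alternative. The authors' cell type names were checked against listed markers, and the type labelled mast held Kit at 0.133 and Mcpt4 at 0 transcripts per 10,000, beside the highest levels of the mast cell genes Cpa3, at 6.71, and Fcer1a, at 5.13. It is called here by its label. The type labelled NG held the highest levels of the neutrophil genes S100a8 and Retnlg. Some other labels did not match all their markers. Both markers listed for the cDC2 type were highest in mature dendritic cells, Cd209a at 8.41, with 5.73 in cDC2 cells, and Mgl2 at 16.4. Sox17, listed for arterial endothelium, was highest in general capillary cells, and Cyp2f2, listed for club cells, in basal cells. Ace, listed for non-classical monocytes, was highest in arterial endothelial cells. These types too are called by their labels.

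The plot of levels by cell type shows that the genes did not share one ranking. Ranks were taken among types with a value by mouse. Ifit3 was highest in alveolar type 1 (AT1) cells, the thin cells of gas exchange, at 1.97 ± 0.359 transcripts per 10,000 (SD, n = 8). The AT1 values ran from 1.38 to 2.59, and the next type, mesothelial cells, ran from 0.327 to 0.797 (n = 7), without overlap. In AT2 cells, the neighbouring epithelial type, Ifit3 was at 0.0101 ± 0.00759 (SD, n = 8). A transcript of Ifit3 was found in 71.6% of AT1 cells and in 0.904% of AT2 cells, at median depths of 10135 and 11684 UMIs per cell. Ifit1 was also highest in AT1 cells, at 0.640 ± 0.185 (SD, n = 8), but overlapped mesothelial cells, at 0.421 ± 0.193 (SD, n = 7). Averaged over cells in place of mice, Ifit1 was at 0.645 in AT1 cells and at 0.770 in 40 mature dendritic cells, which were too few for a value by mouse.

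**Figure D1:**
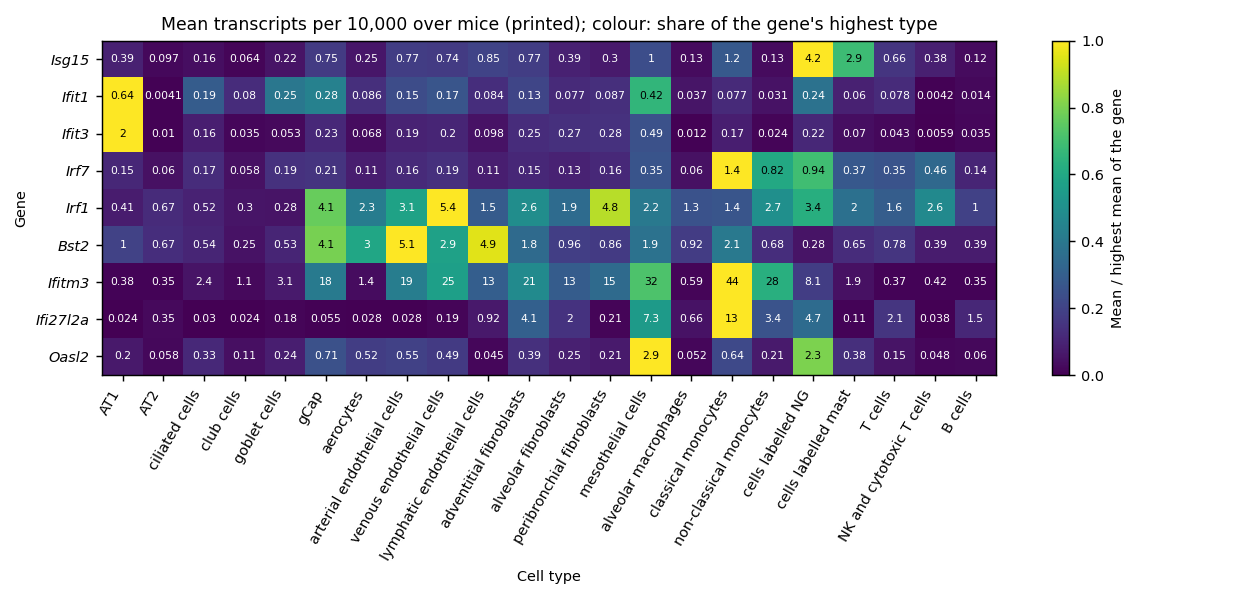
Mean over mice of transcripts per 10,000, printed in each cell, for the 9 genes (rows) in the 22 cell types tested (columns), with colour as the share of the gene's highest mean. Ifit1 and Ifit3 peak in AT1 cells, Isg15 in cells labelled NG, Oasl2 in mesothelial cells, Irf1 and Bst2 in endothelial cells, and Irf7, Ifitm3 and Ifi27l2a in classical monocytes.

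Isg15 and Oasl2 peaked in leukocytes and in the mesothelium, the lining of the lung surface. Isg15 reached 4.24 ± 1.62 in cells labelled NG (SD, n = 8) and 2.90 ± 0.852 in cells labelled mast (SD, n = 7), and these overlapped, as did classical monocytes at 1.19 ± 0.696 (SD, n = 8). Oasl2 reached 2.86 ± 0.550 in mesothelial cells (SD, n = 7) and 2.30 ± 0.438 in cells labelled NG (SD, n = 8). The lowest NG value of Oasl2, 1.68, lay above the highest value in the next type, general capillary (gCap) endothelial cells, at 1.01. Classical monocytes, the circulating precursors of tissue macrophages, held the highest Irf7, Ifi27l2a and Ifitm3. Irf7 stood there at 1.35 ± 0.704, Ifi27l2a at 13.5 ± 3.63 and Ifitm3 at 44.5 ± 6.55 transcripts per 10,000 (SD, n = 8 each). All 3 overlapped the next type in rank. Averaged over cells, Irf7 was at 1.30 in classical monocytes and at 1.40 in 50 plasmacytoid dendritic cells.

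Irf1 and Bst2 had their highest means in endothelium. Irf1 was at 5.38 ± 1.32 in venous endothelial cells (SD, n = 8), 4.81 ± 1.69 in peribronchial fibroblasts (SD, n = 6) and 4.13 ± 1.52 in gCap cells (SD, n = 8), with overlapping values. Bst2 was at 5.14 ± 1.02 in arterial, 4.91 ± 0.972 in lymphatic, 4.09 ± 0.681 in gCap and 3.04 ± 0.349 in aerocyte endothelium (SD, n = 8 each), and each overlapped its neighbour in rank. Plasmacytoid dendritic cells, which carry Bst2 as a surface marker in mice, held 31.8 Bst2 transcripts per 10,000 over 50 cells, too few per mouse for a value by mouse. In 127 cells of the cDC2 type it was at 5.79 over cells, above the 5.25 of arterial endothelial cells.

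Across the 17 types with at least 20 cells in every mouse, levels of Ifit1 and Ifit3 had a Pearson correlation of 0.861, those of Isg15 and Oasl2 also 0.861, and those of Irf7 and Ifi27l2a 0.781. By contrast, Isg15 and Ifit3 had 0.103. Of the types tested, peribronchial fibroblasts, NK and cytotoxic T cells and non-classical monocytes had too few cells in a mouse and were left out. So were mesothelial cells, highest in Oasl2, and cells labelled mast, second in Isg15. These are descriptions over types that share mice and libraries. Of 14849 other genes, those most like the mean of the 9 over the same types were Apbb3 (r = 0.893), Cx3cr1 (0.877), Gm8865 (0.862), Ndel1 (0.856) and Sra1 (0.835). Among these 17 types, the first 4 were highest in cells labelled NG and Sra1 in classical monocytes.

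The main comparison asks whether 10 months of smoke changed these genes in any cell type. One pair of gene and type was called, Ifit3 in adventitial fibroblasts, the collagen-rich cells around vessels and large airways, which was higher in CS mice. In total, 22 types had at least 20 cells in 3 or more mice of each group, and 135 of 198 pairs passed the filter of detection in at least 10% of cells of either group. Of these, 10 passed through the CS group alone and 2 through the RA group alone. Each type was fitted with limma over all genes on log2 of the mean plus 1, with Benjamini-Hochberg adjustment and a threshold of 0.05. Of the 135 pairs, 1 was called higher in CS and 0 lower, beside 0.712% and 0.518% of all gene and type pairs tested. At an unadjusted p under 0.05, limma counted 8 pairs higher and 4 lower, beside 8.91% and 6.3% of all pairs, or together 8.89% of pairs beside 15.2%. After adjustment edgeR with TMM scaling also called 0 lower, beside 0.931% of all pairs. CS and RA mice did not overlap in 2 pairs higher in CS and 2 lower, beside 5.99% and 4.67% of all pairs.

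The plot of differences by cell type gives the values on this scale, where the pseudocount of 1 compresses differences of low genes. Log2 differences, CS minus RA, ran from -0.42 to 0.60 with a median of 0.03, and 57.8% of pairs lay above 0, against 54.2% over all genes. Above 0 lay 69 of the 123 pairs that passed the filter in both groups. Through the CS group alone it was 9 of 10, and through the RA group alone 0 of 2. The 70 ways to assign 4 of 8 mice put a floor of 0.0286 under an exact two-sided permutation p, which 3 pairs reached, and the smallest exact p was 0.771 after Benjamini-Hochberg adjustment over the 135 pairs. A few pairs at that floor could not pass this adjustment, so the exact test could hardly call any.

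**Figure D2:**
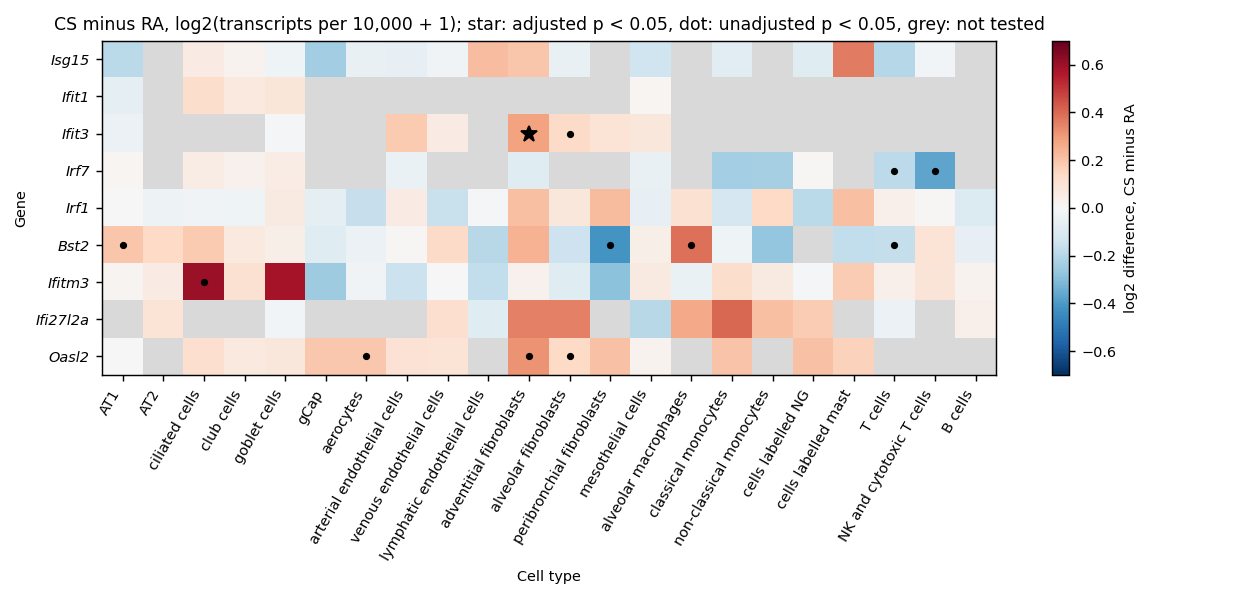
Log2 difference, CS minus RA, of mean transcripts per 10,000 plus 1, for the 9 genes (rows) in 22 cell types (columns), with grey for pairs not tested, a star for an adjusted p under 0.05 and a dot for an unadjusted p under 0.05 by limma. Differences run from -0.42 to 0.60, and the 1 star among 135 pairs is Ifit3 in adventitial fibroblasts.

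In adventitial fibroblasts, Ifit3 was at 0.330, 0.346, 0.519 and 0.297 transcripts per 10,000 in CS mice C2, C5, D2 and D5, and at 0.111, 0.147, 0.199 and 0.0548 in RA mice F1, F3, M1 and M3. Every CS mouse lay above every RA mouse. The means were 0.373 ± 0.0997 with smoke and 0.128 ± 0.0607 with room air (SD, n = 4 each), a ratio of 2.91. On the log2 scale with pseudocount 1, which understates changes of low genes, the difference was 0.28 (standard error 0.0562), with an adjusted p of 0.0302 by limma. By edgeR with TMM scaling, which has no such pseudocount, the log2 differences were 1.57 for Ifit3 (adjusted p 0.0328) and 1.12 for Oasl2 (adjusted p 0.119) in these fibroblasts. Ifit3 was found in 25.5% of cells of CS and 8.89% of cells of RA mice, so it passed the detection filter through the CS group alone, and without the filter its adjusted p was 0.139 by limma. In this type, 1.91% of all genes tested were called higher and 1.19% lower.

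These levels rest on few molecules, since the summed Ifit3 counts in adventitial fibroblasts were 60.4, 79.7, 59.3 and 38.7 in the 4 CS mice and 32.6, 32.7, 31.7 and 5.97 in the RA mice. The lowest RA value came from 69 cells of M3. With 1 mouse left out, the adjusted p for Ifit3 by limma lay between 0.0364 and 0.0918, and the call was lost without C2, C5, F1, F3 or M3. With sequencing lane, each lane holding 1 mouse of either group, as a block it was 0.066 by limma.

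Of the 8 genes tested in adventitial fibroblasts, 7 had a log2 difference above 0, with a median of 0.23, and of these Ifit3 alone passed the test. Ifi27l2a was at 4.56, 4.71, 4.91 and 4.62 in CS and at 4.42, 3.81, 2.02 and 4.08 in RA mice, again without overlap, at an adjusted p of 0.222 by limma. Groups did not overlap in this direction for 7.9% of genes of this type. Oasl2 was at 0.331, 0.267, 0.642 and 0.980 in CS and at 0.179, 0.216, 0.142 and 0.391 in RA mice, at an adjusted p of 0.148 by limma. The higher CS values of Oasl2 came from D2 and D5.

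Mouse D2 held the highest value for 6 of the 8 genes in this type. Isg15 was at 1.49 in D2 and between 0.675 and 0.744 in the other CS mice, against 0.509, 0.768, 0.851 and 0.459 in RA mice, so that without D2 the groups interleave. Bst2 was at 3.71 in D2 and between 1.45 and 1.61 in the other CS mice, with RA mice between 1.29 and 1.66. For Ifit3 by contrast, the 3 other CS mice also lay above all RA mice, as the plot of values by mouse shows.

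**Figure D3:**
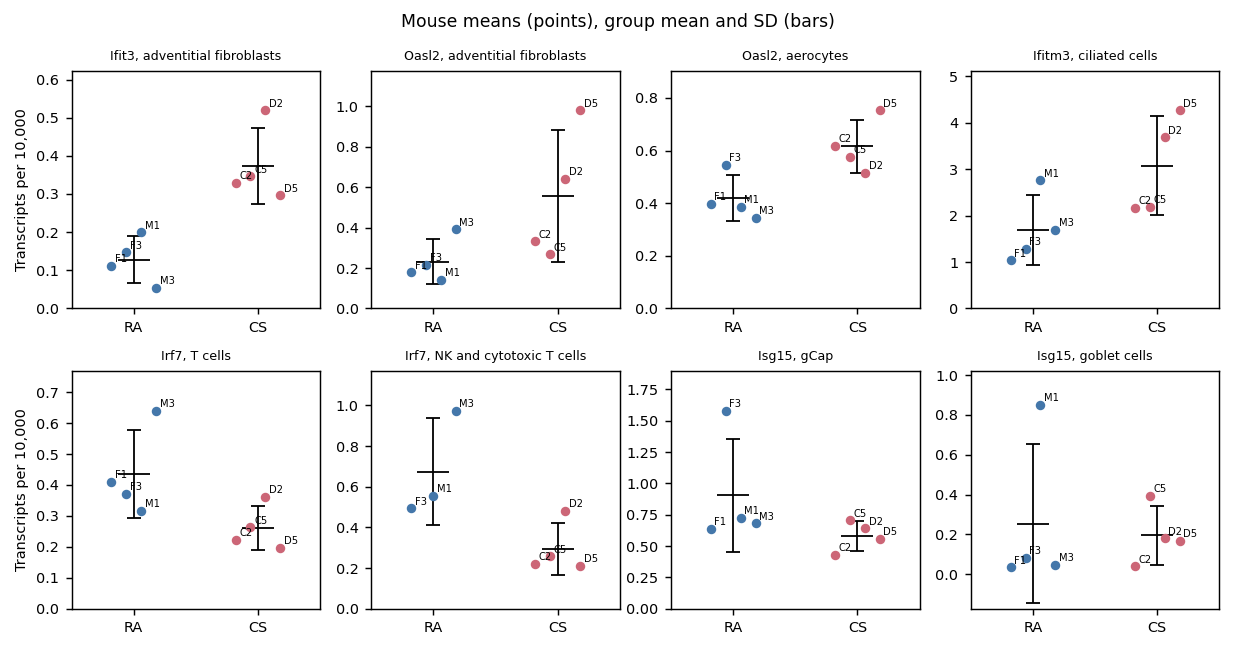
Transcripts per 10,000 (vertical axis) of 8 pairs of gene and cell type in RA and CS mice, with 1 named point per mouse and bars for the group mean and SD. Ifit3 in adventitial fibroblasts is higher in every CS mouse, mouse F3 stands above the other RA mice for Isg15 in gCap cells (1.58), and mouse M1 for Isg15 in goblet cells (0.851).

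Markers of other cell types were measured in the same adventitial fibroblasts as summed levels per 10,000. Immune markers lay between 0.919 and 1.85 in CS and between 0.796 and 4.21 in RA mice, and endothelial markers between 2.06 and 2.46 and between 1.60 and 4.68. Epithelial markers lay between 0.886 and 40.7 in CS and 0.212 and 33.0 in RA, erythrocyte markers between 0.271 and 0.771 and between 0.427 and 24.4, and fibroblast markers between 103 and 133 in CS and up to 134 in RA. All 5 lists overlapped between groups, and their part in the Ifit3 difference was not tested. The epithelial list held no marker particular to AT1 cells, where Ifit3 was highest, so transcripts from AT1 cells were not gauged.

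Oasl2 was the gene whose differences most often had one sign. Its log2 difference was above 0 in 14 of 15 types, with a median of 0.14 and a range from -0.0054 to 0.32, and none of these passed the test. Of the 14, cells labelled mast (detected in 15.3% of CS and 5.07% of RA cells) and peribronchial fibroblasts (10.6% and 5.76%) entered the count through the CS group alone. The sign turned in goblet cells by edgeR with TMM scaling (-0.26). Without D5 it turned in cells labelled mast (-0.11) and in mesothelial cells (-0.10). How many of all genes lay so often to one side is not given here. The types share their mice, so they are not replicates. In aerocytes, the large capillary cells of gas exchange, Oasl2 was at 0.617, 0.577, 0.516 and 0.753 in CS and at 0.398, 0.545, 0.385 and 0.345 in RA mice. Only RA mouse F3 reached into the CS range, and the log2 difference of 0.19 had an adjusted p of 0.092 by limma. In alveolar fibroblasts, Oasl2 was at 0.308 ± 0.0987 with smoke and 0.184 ± 0.0275 with room air (SD, n = 4), at an adjusted p of 0.157 by limma. Ifit3 in the same fibroblasts was at 0.371, 0.333, 0.270 and 0.346 in CS mice and at 0.0992, 0.191, 0.221 and 0.342 in RA mice, M3 alone lying within the CS range, and its log2 difference of 0.14 had an adjusted p of 0.189 by limma. It passed the detection filter there through the CS group alone, at 16.3% of CS and 9.14% of RA cells.

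Ifitm3 showed its widest difference in ciliated cells, at 2.17, 2.19, 3.68 and 4.27 in CS and at 1.03, 1.28, 2.76 and 1.70 in RA mice. The groups overlapped through RA mouse M1, and the log2 difference of 0.60 (standard error 0.207) had an adjusted p of 0.114 by limma. Without M1, the highest RA mouse, it was 0.78 with an adjusted p of 0.0478 by limma. With sex read from transcripts as a term, a setting chosen after seeing the data, the adjusted p was 0.00889 by limma, and with labelled sex it did not pass. Over 22 types, Ifitm3 lay above 0 in 13, with a median of 0.03. Among the 13, B cells passed the detection filter through the CS group alone, at 12.2% of CS and 8.90% of RA cells. In gCap cells, Ifitm3 was at 15.7, 17.9, 17.3 and 15.3 in CS mice, at 15.1 in RA mouse F1 and between 20.7 and 22.3 in the other RA mice. Its log2 difference of -0.25 had an adjusted p of 0.214 by limma, and without F1, the lowest RA mouse, it was -0.37 with an adjusted p of 0.0325.

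Bst2 lay above 0 in 11 of 21 types. In alveolar macrophages, the resident phagocytes of the airspace, it was at 1.19 ± 0.549 with smoke and 0.645 ± 0.215 with room air (SD, n = 4), with an adjusted p of 0.392 by limma. In AT1 cells it was at 1.15 ± 0.227 and 0.875 ± 0.138 (SD, n = 4), with an adjusted p of 0.224 by limma. The direction was the opposite in peribronchial fibroblasts, at 0.598 ± 0.283 with smoke and 1.13 ± 0.302 with room air (SD, n = 3), and in T cells, at 0.678 ± 0.0656 and 0.891 ± 0.162 (SD, n = 4). Their adjusted p values by limma were 0.578 and 0.227.

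Irf7 lay above 0 in 5 of 12 types, with a median log2 difference of -0.05, and none passed the test. Its mean values were lower in CS mice in T cells and in NK and cytotoxic T cells. In B cells, where it did not pass the detection filter, it was at 0.146 with smoke and 0.133 with room air. In NK and cytotoxic T cells, which kill infected cells, it was at 0.221, 0.258, 0.481 and 0.210 in CS mice and at 0.494, 0.555 and 0.975 in RA mice F3, M1 and M3, F1 having under 20 cells. The groups did not overlap, as for 5.39% of genes of this type lower in CS, and the log2 difference of -0.37 had an adjusted p of 0.357 by limma. By edgeR with TMM scaling it was -1.04, with an adjusted p of 0.483. In T cells, Irf7 was at 0.223, 0.263, 0.361 and 0.196 in CS and at 0.410, 0.371, 0.317 and 0.640 in RA mice, at an adjusted p of 0.194 by limma. RA mouse M1 lay within the CS range. Irf7 in non-classical monocytes, the patrolling subset, was at 0.521, 0.741, 0.725 and 0.785 in CS mice and at 1.07, 0.955 and 0.933 in RA mice F3, M1 and M3, again without overlap (2.84% of genes of this type) and with an adjusted p of 0.81 by limma.

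Isg15, Ifit1, Irf1 and Ifi27l2a gave no pair with an unadjusted limma p under 0.05. Isg15 lay above 0 in 5 of 17 types, with a median log2 difference of -0.05 and a range from -0.24 to 0.36. Ifit1 passed the detection filter in 5 types, with differences from -0.07 to 0.12, and Irf1 lay above 0 in 11 of 22 types, with a range from -0.19 to 0.22. Ifi27l2a lay above 0 in 9 of 13 types, with a median of 0.12. Of these 9, venous endothelial cells (0.12) passed the detection filter through the CS group alone, at 11.2% of CS and 7.73% of RA cells. For Ifit3 in AT1 cells, where it was highest, CS mice held 1.91 ± 0.210 and RA mice 2.03 ± 0.498 (SD, n = 4), at an adjusted p of 0.877 by limma.

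For these genes, single mice stood apart in several types at once. Mouse F3 had the highest value in 38 of the 135 pairs, D2 in 25, M1 in 24 and D5 in 18. In gCap cells, F3 held 1.58 Isg15 transcripts per 10,000, and the other RA mice 0.639, 0.725 and 0.682, against 0.428, 0.706, 0.642 and 0.558 in CS mice. Irf1 in gCap cells was at 7.67 in F3 and between 2.94 and 3.57 in the other RA mice, with CS mice between 3.17 and 4.31. Mouse F1 had the lowest value in 47 of its 120 pairs.

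The mouse that stood apart was not the same in every compartment. M1 held the highest value for 8 of 9 genes in goblet cells and 5 of 8 in AT1 cells, F3 for 4 of 5 in gCap, 5 of 7 in venous endothelial cells and 5 of 7 in classical monocytes, and D2 for 5 of 7 in arterial endothelial cells. Isg15 in goblet cells, mucus-making cells of the airway, was at 0.851 in M1 and at 0.0353, 0.0831 and 0.0471 in the other RA mice, with CS mice at 0.0393, 0.394, 0.181 and 0.167. In ciliated cells, Isg15 was at 0.460 in M1 and at 0.0323, 0.0578 and 0.0310 in the other RA mice, while the CS mice were at 0.198, 0.155, 0.175 and 0.179. The 4 CS mice thus lay between M1 and the other 3 RA mice.

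Oasl2 in ciliated cells had the same order, at 0.505 in M1, at 0.196, 0.216 and 0.207 in the other RA mice, and at 0.383, 0.331, 0.371 and 0.448 in CS mice. M1 was the highest RA mouse for both genes, and over all 8 mice neither passed. Leaving out that mouse alone gave log2 differences of 0.18 for Isg15 (adjusted p 0.0032 by limma) and 0.20 for Oasl2 (0.0145), values that depend on its removal. Isg15 passed the detection filter in ciliated cells through the CS group alone, at 10.8% of CS and 6.29% of RA cells. With all mice its log2 difference was 0.06 by limma and -0.12 by edgeR with TMM or RLE factors. As the plot of deviations by mouse shows, the mean log2 deviation of the tested genes from the mean over mice was 0.41 for F3 in gCap cells, 0.35 for M1 in goblet cells, 0.41 and 0.37 for D2 in alveolar macrophages and adventitial fibroblasts, and -0.58 for F1 in classical monocytes.

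**Figure D4:**
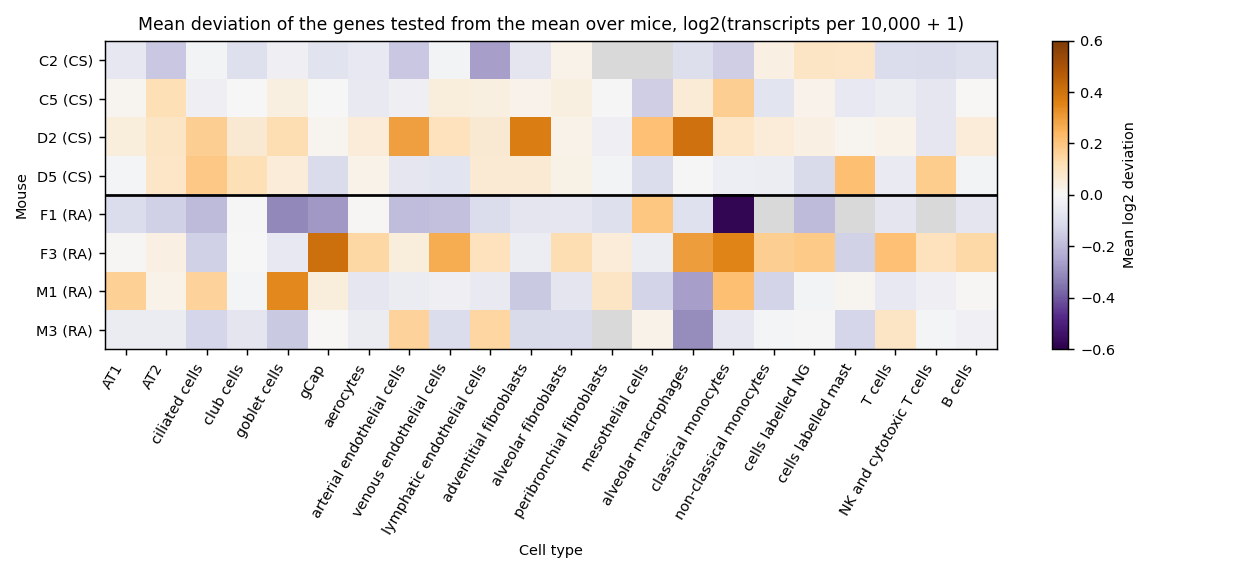
Mean over the tested genes of the log2 deviation of each mouse (rows) from the mean over mice, by cell type (columns), with grey for under 20 cells. F3 reaches 0.41 in gCap cells, M1 0.35 in goblet cells and D2 0.41 in alveolar macrophages, and F1 falls to -0.58 in classical monocytes.

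To see whether such means came from few cells, cells with at least 3 transcripts summed over Isg15, Ifit1, Ifit3, Irf7 and Oasl2 were counted after each cell was thinned to 2000 UMIs. In gCap cells they made up 3.66%, 4.46%, 4.29% and 4.15% in CS mice and 2.38%, 8.73%, 3.39% and 3.34% in RA mice, where 8.73% was 140 of 1603 cells of F3. The group means were 4.14% ± 0.344 and 4.46% ± 2.89 (SD, n = 4), and 386 CS and 508 RA cells under 2000 UMIs were left out. Cells labelled NG held the largest shares, at 18.8% ± 5.19 and 19.8% ± 6.79 (SD, n = 4), taken over 934 of 1411 cells since 273 CS and 204 RA cells fell under 2000 UMIs. AT2 cells held 0.129% and 0.121%, which came from 2 of 1838 cells.

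In adventitial fibroblasts the share of such cells was 3.82% ± 2.05 with smoke and 1.33% ± 1.12 with room air (SD, n = 4), with an exact two-sided permutation p of 0.0857 and an adjusted p of 0.880 over 22 types. Without thinning it was 23.7% and 13.9%. None of the 22 types passed an adjusted p of 0.05 in the exact permutation test, thinned or not, and 4 comparisons reached the smallest p of 0.0286. A type at that p alone could not pass adjustment over 22 types, so the number of mice nearly fixed this outcome. Unthinned, the share with at least 3 transcripts was 19.9% with smoke and 10.8% with room air in ciliated cells, and 1.34% and 0.369% in B cells, both at an adjusted exact p of 0.314. Thinned, the B cell shares lay the other way, at 0.0868% and 0.239%, but these came from 3 of 2057 cells. With at least 1 transcript the thinned B cell shares were 7.18% and 8.95%. Those of ciliated cells with at least 3 were 1.45% and 0.552% after thinning, from 35 of 3471 cells. After thinning, the share with at least 2 was 11.6% and 17.5% in AT1 cells, and the share with at least 1 was 16.1% and 30.2% in non-classical monocytes, both lower with smoke and at an adjusted exact p of 0.629.

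The differences in gCap cells were also set against those in 6 other types within the same mice, with limma over all genes tested in both types. Of the 9 genes, the 5 tested in gCap cells could be compared, namely Isg15, Irf1, Bst2, Ifitm3 and Oasl2. Against AT2 cells and alveolar macrophages only Irf1, Bst2 and Ifitm3 were. No pair of these was called, beside 0.663% of genes for alveolar macrophages, 2.16% for AT2 cells, 0.0787% for arterial endothelial cells, 0.0835% for aerocytes, 0.14% for venous endothelial cells and 0.101% for alveolar fibroblasts. The smallest adjusted p was 0.288 by limma, for Isg15 in gCap minus venous endothelial cells (log2 difference -0.22, standard error 0.0614).

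Of 21 interferon ligand genes listed, 5 were analysed here, and few cells held their transcripts. Ifnb1 had 98.0 summed counts in 22 cells, of which 50 counts lay in 3 mature dendritic cells, and Ifng had 796 counts in 294 cells, 170 of them T cells. The highest mean Ifng level was in NK and cytotoxic T cells, at 1.36 per 10,000. Ifnab, Ifnk and Ifnz had 35.0, 26.0 and 16.0 counts.

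Beyond the 9 genes, lists of the interferon pathway held 122 genes in the data, of which 107 were tested in at least 1 type, for 1236 pairs. Of these pairs, 1 was called higher and 5 lower in CS mice by limma, beside 0.712% and 0.518% of all gene and type pairs tested. The share above 0 was 62.7%, against 54.2% over all genes. CS and RA mice did not overlap in 5.99% of all pairs in the higher and 4.67% in the lower direction. These shares belong beside the pathway genes without overlap named below. Interferon-gamma-induced genes lay above 0 in 86 of 100 pairs, signal transducers in 94 of 122 and other type I interferon-stimulated genes in 428 of 648. Receptors lay above 0 in 45 of 107 pairs, negative regulators in 40 of 95 and other interferon regulatory factors in 36 of 87. Nucleic acid sensors lay above 0 in 46 of 75 pairs. The pairs of a list repeat few genes, 11 for those induced by interferon-gamma, over types that share mice, so they are not replicates. Of the interferon-gamma-induced pairs, 0 were called higher and 1 lower by limma, beside the same 0.712% and 0.518%. How many pairs of the lists passed the detection filter through the CS group alone was not counted.

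In alveolar macrophages, Cxcl10, an interferon-induced chemokine that draws T cells, was at 0.158, 0.620, 0.483 and 0.613 in CS and at 2.26, 3.92, 1.11 and 2.41 in RA mice. The groups did not overlap, and Cxcl10 fell by 1.17 on the log2 scale (adjusted p 0.00681 by limma), in a type where 0.291% of genes were called lower. Slfn2, a regulator of leukocyte quiescence, fell by 0.84 in the same cells (adjusted p 0.0135 by limma). The Cxcl10 call was lost without C2 (0.0623) and without the detection filter (0.296). The Slfn2 call was lost without C2 (0.0741), C5 (0.0725) or D2 (0.0554) and without the filter (0.239), all adjusted p values by limma.

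In ciliated cells, Lgals3bp, a secreted glycoprotein, was at 3.52, 2.95, 3.47 and 4.30 in CS and at 1.55, 1.91, 2.62 and 2.30 in RA mice, and rose by 0.56 (adjusted p 0.0249 by limma). Usp18, the enzyme that removes ISG15 from proteins and dampens receptor signalling, was at 1.23, 1.24, 1.21 and 1.17 in CS and at 1.62, 1.55, 1.63 and 1.51 in RA mice, and fell by 0.22 (adjusted p 0.0159 by limma). Both were clear of overlap, and 2.72% of genes of this type were called higher and 1.91% lower. With lane as a block their adjusted p values by limma were 0.055 and 0.059. The Lgals3bp call was also lost without C2, D2, D5, F3 or M3 (adjusted p 0.0515 to 0.0723 by limma), without the detection filter (0.113) and with adjustment over all types (0.0709), and the Usp18 call without D5 (0.0627).

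Ifngr1, a chain of the interferon-gamma receptor, was at 3.42, 2.86, 3.29 and 3.53 in alveolar fibroblasts of CS mice and at 6.60, 4.92, 5.74 and 5.03 in RA mice, without overlap. Ifngr1 fell by 0.62 on the log2 scale (adjusted p 0.0192 by limma, 0.091 with lane as a block), where 0.672% of genes were called lower. That call was lost without C5 (0.0682) or D2 (0.0599) and without the filter (0.114). Socs3, a feedback inhibitor of JAK signalling, was at 1.32, 0.971, 1.44 and 1.06 in gCap cells of CS mice, and the RA mice lay higher, between 2.12 and 2.80. Socs3 fell by 0.65 (adjusted p 0.0129 by limma, 0.053 with lane as a block), where 3.97% of genes were called lower. It was not called without D5 (0.0570) or without the filter (0.0736). In the same gCap cells, the summed level of 13 genes of the response to tissue digestion lay between 59.3 and 91.7 in CS and between 115 and 156 in RA mice, and its part in the Socs3 difference was not tested.

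Adventitial fibroblasts, where Ifit3 was called, held 67 tested pathway genes, of which 49 lay above 0 and none passed adjustment by limma. At an unadjusted limma p under 0.05, 23 were higher in CS and 4 lower, or 34.3% and 5.97% beside 13.0% and 9.54% of all genes of this type. With 1 mouse left out the count higher ran from 15, without F1, to 30, and with the stricter filter at 25% of cells, whose total is not given here, it was 8. How many of the 23 passed the detection filter through the CS group alone was not counted. edgeR with TMM scaling called 2 of the 67 higher, Adar and Gbp3, beside 1.36% of all genes of this type. Interferon-gamma-induced genes lay above 0 in 8 of 8, among them the immunity-related GTPase Iigp1, at 1.88, 2.19, 11.8 and 3.21 in CS and at 0.572, 2.46, 0.892 and 0.339 in RA mice. Again D2 was the highest mouse, and Iigp1 had an adjusted p of 0.0994 by limma, 0.0403 with lane as a block. Stat2, a subunit of the type I signalling complex, was at 0.359, 0.352, 0.856 and 0.446 in CS and at 0.269, 0.228, 0.199 and 0.207 in RA mice, without overlap, at an adjusted p of 0.0908 by limma. A raised share at an unadjusted limma p under 0.05 was not particular to adventitial fibroblasts. In lymphatic endothelial cells 13 of 62 pathway genes were higher, or 20.97% beside 5.75% of all genes. In club cells it was 17.2% beside 7.15%, but in AT1 cells 2 of 54, beside 9.39%. In cells labelled NG 22.2% were lower, beside 4.47%. Interferon-gamma-induced genes lay above 0 in 9 of 9 in mesothelial and 8 of 8 in arterial endothelial cells, but in 1 of 4 in T cells.

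**Figure D5:**
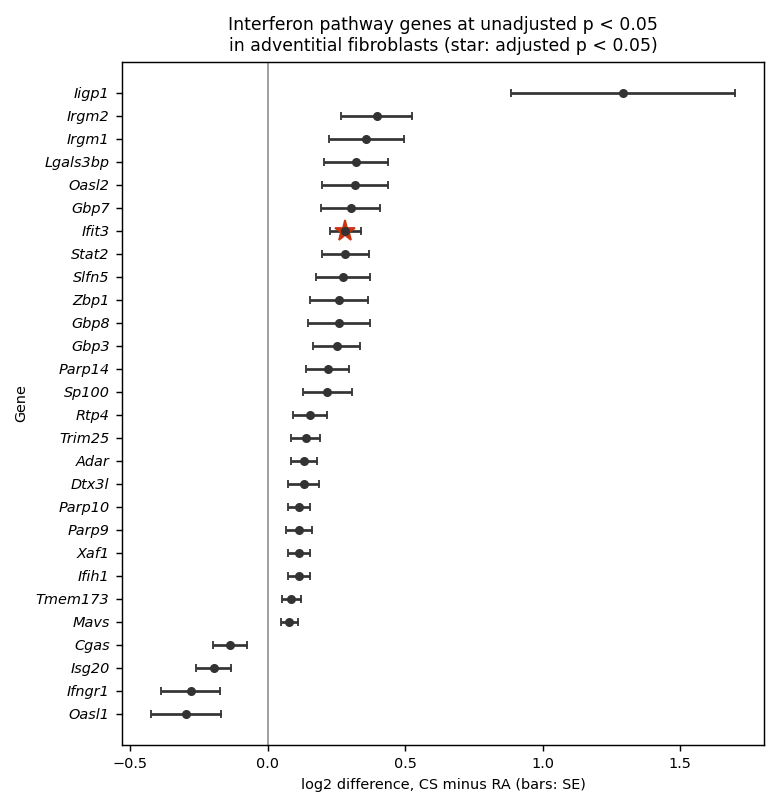
Log2 difference, CS minus RA, with its standard error (bars) for interferon pathway genes, the 9 included, with an unadjusted p under 0.05 by limma in adventitial fibroblasts. Ifit3, at 0.28, carries the star of an adjusted p under 0.05, Iigp1 lies farthest right, at 1.29, and 4 genes lie below 0.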

How the data were processed

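The deposited matrix holds UMI counts per cell, aligned and counted with STAR 2.7.3a and STARsolo on GRCm38.p6 per the labels, and the authors removed free RNA with SoupX, so these are estimated counts: 1.28% were whole within 1e-06. The authors also deposited the percent of mitochondrial reads, which was not used, and the cell type labels, which were. The 1025 multiplets and 7 cycling cells labelled by the authors were left out. No further doublet caller was run.

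Counts were scaled to 10,000 per cell and averaged by type and mouse (at least 20 cells, 3 mice a group). limma 3.58.1 in R 4.3.3 tested log2(mean + 1) over all genes found in at least 10% of cells of either group, after tests on simulated data. edgeR 4.0.16 on rounded summed counts, other filters, a pseudocount of 0.1, mice left out and lane as a replicate block were alternatives. Exact tests went through all assignments of mice with numpy 2.4.6 on Python 3.11.15. p-values measure the spread between mice. Gene positions are from GENCODE M21.

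Lanes come from the labels, each with 1 CS and 1 RA mouse. Deviations of lane partners had median correlations over types of -0.03, -0.01, -0.08 and 0.06 and passed 0.1 in 2 of 17, 1 of 22, 1 of 22 and 8 of 21 types, the highest being 0.392 in gCap cells of lane 4.

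The 9 genes, the pathway lists and the rule for named genes were chosen with earlier results of these data known. The rule names all 9 genes in every type tested, up to 5 called pathway genes per direction, the 5 genes most like the 9 and summed marker lists. Pathway genes called in other types and those of adventitial fibroblasts described at an unadjusted p were picked after their values were seen. Of 150 listed pathway genes, 28 were not analysed here, and 1 is counted in its list but is not reported here by name and is not plotted.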

Additional observations from a re-analysis of the deposited data

Results flagged for a closer look

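In groups of 4 mice, a value was marked when its gap to the nearest other mouse, as a share of the range, passed Dixon's critical value for 4 values. Of 236 groups examined, 23 (9.75%) were marked, where chance gives about 1 in 20, and 9 were CS and 14 RA groups. The marked mouse was F3 in 7, M1 in 6, D2 in 4, C2 and C5 in 2 each, and D5 and F1 in 1 each. It was the highest of its group in 20 and the lowest in 3. All values are transcripts per 10,000, with the range of the other 3 mice of the group after each.

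Mouse F3 stood high mainly in endothelium. In gCap cells it had 1.58 for Isg15 (0.639 to 0.725) and 7.67 for Irf1 (2.94 to 3.57). In venous endothelial cells it had 1.43 for Isg15 (0.492 to 0.641), 0.273 for Ifi27l2a (0.0872 to 0.114) and 0.766 for Oasl2 (0.316 to 0.364). F3 also had 2.29 for Ifitm3 in alveolar macrophages (0.0737 to 0.294) and 0.283 for Irf1 in goblet cells (0.243 to 0.245).

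Mouse M1 stood high in ciliated and goblet cells. In ciliated cells it had 0.460 for Isg15 (0.0310 to 0.0578), 0.331 for Ifit1 (0.0408 to 0.0901), 0.270 for Irf7 (the others up to 0.124) and 0.505 for Oasl2 (0.196 to 0.216). In goblet cells it had 0.851 for Isg15 (0.0353 to 0.0831) and 0.226 for Ifit3 (0 to 0.00575).

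Mouse D2 had 1.49 for Isg15 (0.675 to 0.744) and 3.71 for Bst2 (1.45 to 1.61) in adventitial fibroblasts, 7.04 for Bst2 in arterial endothelial cells (4.39 to 4.76) and 2.67 for Irf1 in alveolar macrophages (1.03 to 1.09). The other marked values were 0.280 for Isg15 in aerocytes of C5 (0.212 to 0.219), 1.40 for Isg15 in mesothelial cells of F1 (0.952 to 0.972) and 1.13 for Ifitm3 in NK and cytotoxic T cells of D5 (0.170 to 0.324). Low values were 1.47 for Irf1 in alveolar fibroblasts of C2 (2.10 to 2.19), 0.161 for Oasl2 in alveolar fibroblasts of C5 (0.340 to 0.372) and 42.0 for Ifitm3 in classical monocytes of C2 (47.0 to 47.9).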

How the results depend on the processing

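Of the 18 pairs of gene and type followed through the settings, namely those of the 9 genes at an unadjusted p under 0.05 by limma and the called pathway genes, none changed sign under any setting run. Their choice at a low p in the main fit nearly fixed this outcome. In 31 of their 337 fits under other settings a called pair lost its call. Of the 135 pairs of the 9 genes tested, 67 changed sign under at least 1 setting, 60 of them with a mouse left out, among them Irf1 in gCap cells (-0.07, and 0.19 without F3) and Isg15 in goblet cells (-0.03, and 0.17 without M1). The 1 call higher among the 9 genes became 0 without the detection filter, with lane as a replicate block and with adjustment over all types, and 2 with sex read from transcripts as a term (Ifitm3 in ciliated cells being the other), a setting chosen after seeing the data. With 1 mouse left out it ran from 0 to 4, and calls lower from 0 to 1. Pathway calls higher, 1 in the main fit, were 2 with a pseudocount of 0.1, 0 without the filter and with adjustment over all types, 6 with a filter at 25% of cells, on summed counts and with sex by transcripts, and 4 by edgeR with TMM or RLE factors. Pathway calls lower, 5 in the main fit, were 1 without the filter, 8 on summed counts and by edgeR with either scaling, and 2 with lane as a block, and with 1 mouse left out the calls ran from 0 to 3 higher and from 3 to 7 lower. Shares of all pairs called under these settings are not given here, except 0.931% lower by edgeR with TMM scaling. The counts alone therefore do not describe the interferon genes. The cause of these moves was not tested. Between-type calls, 0 in the main fit, ran from 0 to 1 with a mouse left out, the 1 being Bst2 in gCap minus AT2 cells (-0.36, adjusted p 0.0381 by limma) without F1. Ifit3 in adventitial fibroblasts had adjusted p values of 0.0151 to 0.139 by limma or edgeR over the settings, the lowest with the filter at 25% of cells, which it passed through the CS group alone, and lost its call without the filter (0.139), with the block (0.066) and over all types (0.057). Beside the calls given with the report's values, the lane block changed no other call among the 9 genes and the pathway lists. The detection filter left Ifit1, Ifit3 and Irf7 tested in 5, 8 and 12 of 22 types.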
